A study of Mus musculus with 6 samples.

Results

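The replication machinery was followed in mouse chemically induced cardiovascular progenitor cells (ciCPCs), progenitors obtained by reprogramming fibroblasts, as 42 named genes out of the 53801 genes of the count files. The genes were listed by the function of their proteins, which license origins, run the fork or supply nucleotides. The list uses no measured value, but it was chosen with earlier results of these data known. They divide into 15 licensing genes, 23 fork genes and 4 nucleotide supply genes. All 42 had counts in each of the 6 libraries and all 42 were among the 15143 genes that passed the filter on low counts.

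Cells at passage 3 (3 libraries) were compared with cells at passage 20 (3 libraries), which asks how the progenitors differ between an early and a late point of their expansion. Cells of both groups were wild type, of mixed background (C57BL/6 and 129J/SvE). They grew in basal medium with BMP4, Activin A, the GSK3 inhibitor CHIR99021 and the FGF receptor inhibitor SU5402, after colonies had been picked during reprogramming. No label ties a library to a culture, colony or batch. The p-values therefore rest on the spread among libraries whose replication may be technical, and an effect of passage cannot be told apart from one of culture, harvest or library preparation.

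DNA replication begins when the origin recognition complex, with Cdc6 and Cdt1, loads the Mcm2 to Mcm7 helicase core onto DNA in G1, a step called licensing that geminin blocks later in the cycle. Cdc45 and the GINS complex then turn the core into a moving helicase, polymerase alpha-primase starts each new strand, and polymerases delta and epsilon extend it with the PCNA clamp. Ribonucleotide reductase, thymidylate synthase and thymidine kinase supply deoxynucleotides. Many of these genes are transcribed by E2F factors as cells enter S phase. In bulk RNA, fewer cells in S phase and less RNA per cell cannot be told apart.

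Libraries held between 11387738 and 17721788 counts in genes. The TMM scaling factors were 1.117 to 1.13 in the early and 0.8733 to 0.9172 in the late libraries. Levels are normalised CPM (read counts relative to the scaled library total), given as mean ± SD with n = 3 per passage, and fold changes are passage 20 over passage 3. One library stood apart. Passage 20 replicate 3 differed from the other two of its passage with a chi-square per degree of freedom of 10.6 and 8.72, against 1.75 to 2.63 for the other replicate pairs. All 8 cardiac progenitor markers had counts at both passages, but 4 rose and 4 fell. Isl1 went from 63.1 to 7.43 CPM, Pdgfra from 328 to 134 CPM, Mef2c from 39.04 to 104 CPM and Nkx2-5 from 1.15 to 5.23 CPM. Of 3 immune markers, Ptprc and Itgam were at 0 counts in all 6 libraries. The other, Cd68, was at 4.73 ± 0.338 CPM at passage 3 and 4.903 ± 1.18 CPM at passage 20. Itgam shares 68.7% of its exon bases with Gm49368 on the same strand, which had 0 counts too. Of 5 fibroblast markers, 4 rose and Thy1 fell, their sum going from 9603 to 10178 CPM at passage 3 to 18859 to 22739 CPM at passage 20, with Col1a1 at 4345 and 12517 CPM. The pluripotency genes Pou5f1 (2.16 ± 0.538 to 13.2 ± 1.17 CPM) and Nanog (1.93 ± 0.0978 to 6.36 ± 0.545 CPM) rose, while Zfp42, too low to be tested, had 3, 7 and 8 counts at passage 3 and 0, 0 and 2 at passage 20. The part of cell composition in the results on replication genes was not tested.

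The replication genes moved in small steps and in both directions. Of the 42, 16 rose, 13 fell and 13 did not pass (edgeR's quasi-likelihood test, Benjamini-Hochberg adjusted p under 0.05), so 69% were called where 74.3% of all 15143 tested genes were. Over all tested genes 37% were called higher and 37.3% lower. The median log2 fold change was 0.032 for the 42 and -0.012 for all tested genes. The median of its absolute size was 0.26 for the 42 and 0.56 for all tested genes. A change of at least 2-fold was called in 3 members, Cdt1 upward and Gins3 and Fen1 downward, against 27.6% of all tested genes. The libraries of the passages did not overlap in 30 of the 42, against 77.5% of all tested genes. Without passage 20 replicate 3, 14 rose and 15 fell. Calls over all tested genes increased there too, from 5604 higher and 5641 lower to 6103 higher and 6266 lower. The 42 genes summed to 2630 ± 65.0 CPM at passage 3 and 2722 ± 87.4 CPM at passage 20, and the libraries of the passages overlapped. As a share of all counts, with no TMM factors, they were 0.306, 0.2896 and 0.2897% at passage 3 and 0.229, 0.247 and 0.252% at passage 20, lower in every late library.

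**Figure D1:**
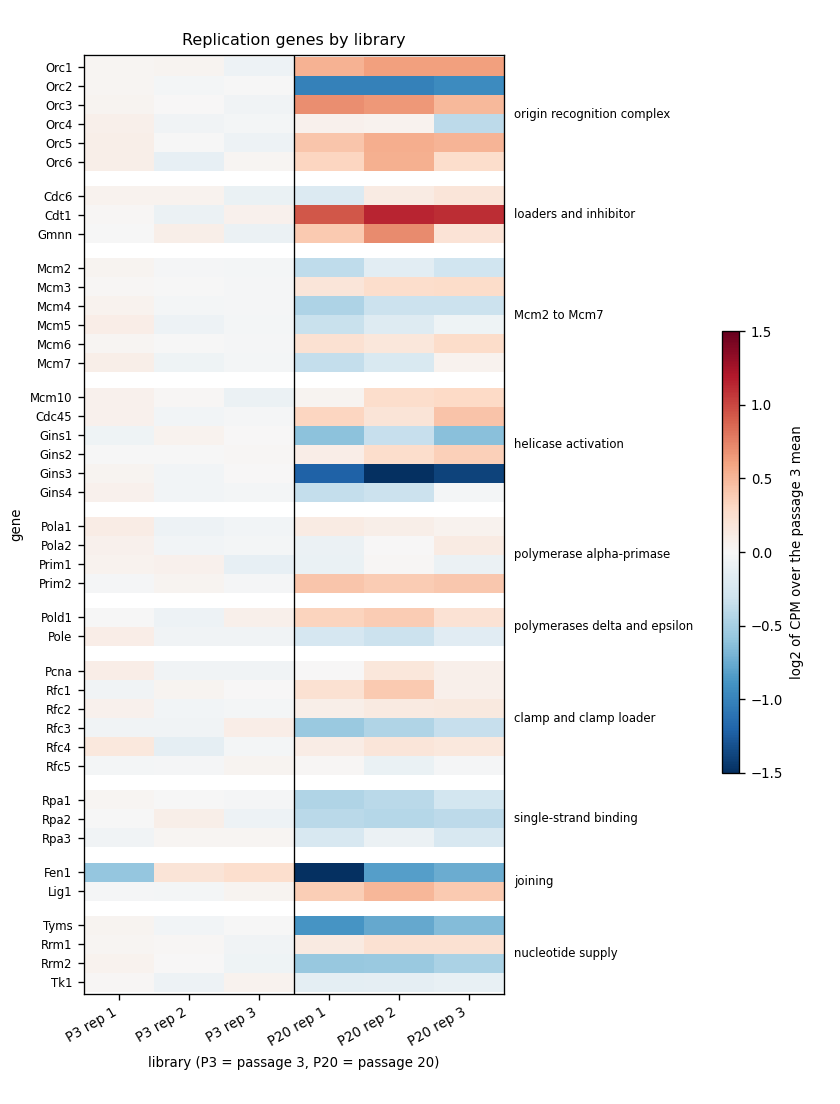
Level of each of the 42 genes in each of the 6 libraries, as log2 of its CPM over the mean of the 3 passage 3 libraries (colour), with genes in rows by complex and libraries in columns. Orc2, Gins3, Tyms and Rrm2 are low and Cdt1, Orc1 and Orc3 high in all 3 passage 20 libraries, most other genes stay near 0, and the passage 20 values of Gins3 in replicate 2 and of Fen1 in replicate 1 (2 counts) lie beyond the colour range.

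The calls of small rises depended on the scaling. With library sizes only and no TMM factors, all tested genes together had a median log2 fold change of -0.34. Of the members 3 were then higher and 26 lower, where 23.3% of all tested genes were higher and 54.6% lower. The sign of 14 members turned there. Of the 29 called members, 13 kept both sign and call under all 16 alternatives tried: Orc1, Orc3 and Cdt1 upward, and Orc2, Mcm2, Mcm4, Gins1, Gins3, Rfc3, Rpa1, Rpa2, Tyms and Rrm2 downward. A further 10, all higher, kept them under every alternative except library sizes only. The upward calls of Mcm10, Gins2 and Rfc1 were lost with library sizes only and under other alternatives, and the downward calls of Mcm5, Pole and Fen1 were kept with library sizes only and lost under others.

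**Figure D2:**
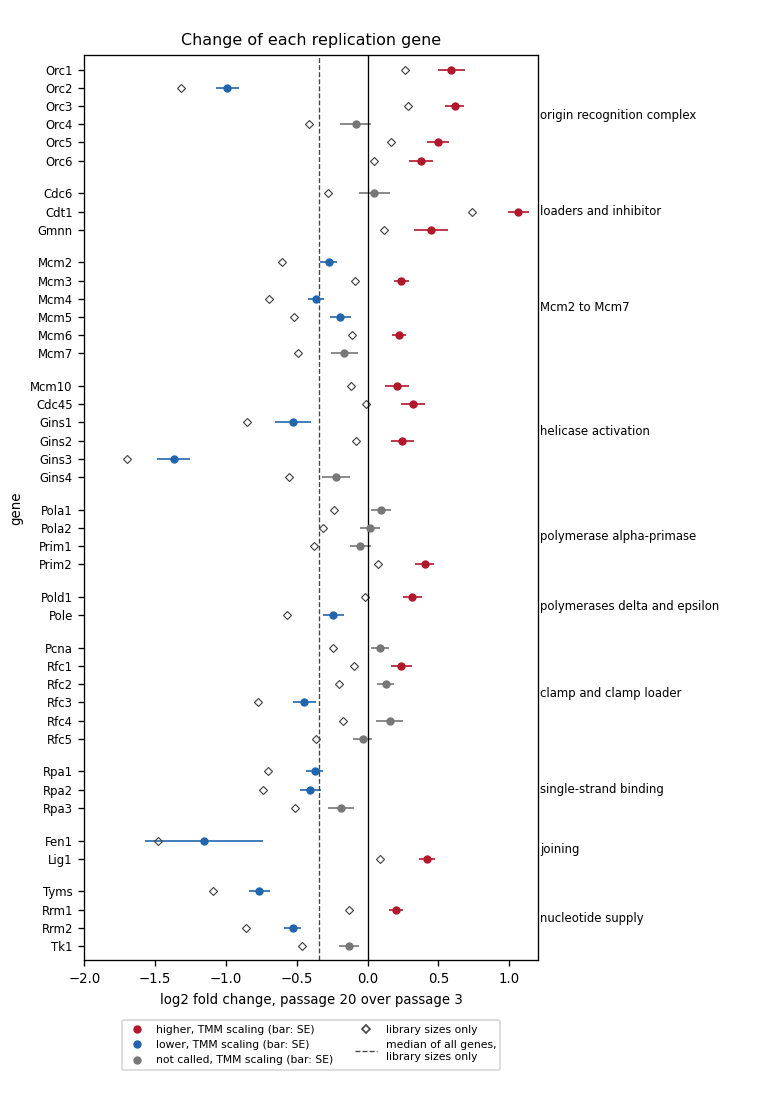
Log2 fold change of each gene, passage 20 over passage 3 (filled circles with SE bars, coloured by the edgeR call), beside the value with library sizes only (open diamonds). The dashed line marks the median of all tested genes under library sizes only (-0.34), and the diamonds sit lower than the circles by about that amount in every gene.

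The 3 rises that held under every alternative were all in licensing genes. Of 15, 8 rose and 4 fell by edgeR's test while 3 missed the threshold (with library sizes only 3 rose and 7 fell), with a median log2 fold change of 0.22 (-0.11 with library sizes only). Cdt1 (ENSMUSG00000006585, GRCm38 chromosome 8, 122568015 to 122573554), which brings the Mcm core to origins, was at 41.2, 38.4 and 42.4 CPM at passage 3 and 77.5, 89.8 and 87.9 CPM at passage 20. Each late library lay above every early one, and Cdt1 rose 2.09-fold (log2 fold change 1.06, SE 0.07, edgeR adjusted p = 2.39e-07). It stayed higher with library sizes only (log2 fold change 0.73). Gmnn, which encodes geminin, the inhibitor that binds Cdt1, was at 20.9, 22.3 and 19.7 CPM at passage 3 and 27.5, 34.1 and 24.1 CPM at passage 20. The late libraries were all higher but spread widely, and the rise was 1.36-fold (log2 fold change 0.44, SE 0.12, edgeR adjusted p = 0.00583), no longer passing with library sizes only (log2 fold change 0.11). Without passage 20 replicate 2, the highest library, the log2 fold change of Gmnn was 0.30. Cdc6, the ATPase that acts with Cdt1 in loading, was at 23.1, 23.1 and 20.7 CPM at passage 3 and 19.3, 24.2 and 25.4 CPM at passage 20. Its groups overlapped (log2 fold change 0.05, SE 0.11, edgeR adjusted p = 0.699), and its sign turned without passage 3 replicate 3 (-0.015) and without passage 20 replicate 3 (-0.047), and with upper-quartile factors or library sizes only.

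Per kilobase of exon, Cdt1 went from 12.9 ± 0.666 to 27.1 ± 2.12 CPM per kb and Gmnn from 14.3 ± 0.864 to 19.5 ± 3.48 CPM per kb. In CPM, Cdt1 was the higher of the pair at both passages (means of 40.7 and 85.1 CPM against 20.95 and 28.6 CPM for Gmnn). The ratio of Cdt1 to Gmnn per kilobase within a library does not depend on the scaling. It was 0.922, 0.804 and 1.004 at passage 3 and 1.32, 1.23 and 1.700 at passage 20. The passages did not overlap, and the means were 0.9099 ± 0.1002 and 1.41 ± 0.251 (exact permutation test, two-sided p = 0.1, the smallest that 3 libraries against 3 can give). The highest value came from passage 20 replicate 3, and the ratio of the means was 1.55, or 1.397 without that library.

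Subunits of the origin recognition complex moved in opposite directions. Of 6, 4 rose, 1 fell and 1 did not pass, and with library sizes only 2 rose and 2 fell. Orc2 (ENSMUSG00000026037, GRCm38 chromosome 1, 58462771 to 58505109), a core subunit, was at 29.3, 28.1 and 28.6 CPM at passage 3 and 14.1, 14.2 and 14.9 CPM at passage 20. The libraries of each passage lay close together and far from the other passage, a 1.99-fold fall (log2 fold change -0.99, SE 0.08, edgeR adjusted p = 7.82e-07). Orc1, the ATPase subunit whose level varies through the cell cycle, was at 11.3, 11.4 and 10.5 CPM at passage 3 and 15.9, 16.97 and 16.99 CPM at passage 20. It rose 1.505-fold without overlap (log2 fold change 0.59, SE 0.10, edgeR adjusted p = 0.000186), and by 0.26 on the log2 scale with library sizes only. Orc3, another core subunit, rose from 75.1 ± 2.63 to 115 ± 8.44 CPM (log2 fold change 0.61, SE 0.07, edgeR adjusted p = 7.34e-06), and by 0.28 on the log2 scale with library sizes only. Orc5 rose from 24.7 ± 1.44 to 34.7 ± 1.502 CPM and Orc6 from 46.2 ± 3.37 to 59.96 ± 5.93 CPM (edgeR adjusted p = 0.000155 and 0.002), and neither passed with library sizes only. Orc4 was at 43.2, 39.8 and 40.3 CPM at passage 3 and 42.9, 42.5 and 31.4 CPM at passage 20. Only passage 20 replicate 3 was low, the groups overlapped (log2 fold change -0.08, SE 0.11, edgeR adjusted p = 0.504), and without that library the log2 fold change was 0.041. Orc2 shares 29.8% of its exon bases with exons of Nif3l1 on the opposite strand, and no source used here gives the strand setting of the counting.

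The ratio of Orc1 to Orc2 per kilobase was 0.429, 0.449 and 0.407 at passage 3 and 1.25, 1.33 and 1.27 at passage 20. The early and late libraries were far apart, with mean ratios of 0.428 ± 0.0207 and 1.28 ± 0.0403 (exact permutation test, two-sided p = 0.1, the smallest possible). Counted per kilobase of exon that no other gene shares, the ratio was 0.337, 0.353 and 0.321 at passage 3 and 0.982, 1.04 and 0.998 at passage 20. Orc2 was thus the higher of the pair at passage 3 with either length, while at passage 20 Orc1 was higher with the whole exon length and the pair was about level with the unshared length. With the whole exon length the order of mean levels at passage 3 was Orc6, Orc3, Orc2, Orc4, Orc5 and Orc1 (18.7 ± 1.37 down to 3.18 ± 0.141 CPM per kb). At passage 20 it was Orc6, Orc3, Orc5, Orc4, Orc1 and Orc2 (24.3 ± 2.402 down to 3.73 ± 0.104 CPM per kb), where Orc5, Orc4 and Orc1 lay within the spread of Orc4 (5.62 ± 0.244, 5.22 ± 0.878 and 4.78 ± 0.178 CPM per kb). With the unshared length, Orc5, Orc4, Orc1 and Orc2 were at 5.704, 5.66, 5.36 and 5.32 CPM per kb at passage 20.

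**Figure D3:**
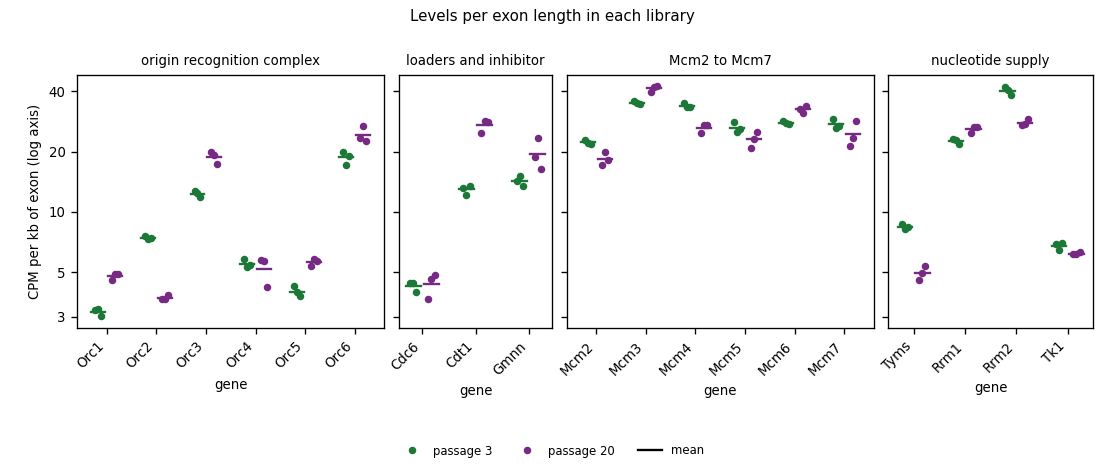
CPM per kilobase of whole exon length (log axis) of the licensing and nucleotide supply genes in each library (points) at passage 3 and passage 20, with the mean of 3 libraries (bars). Orc1 is far below Orc2 at passage 3 and above it at passage 20 (about level there with the unshared length). On this scale the mean of Cdt1 passes that of Gmnn, and the 6 Mcm genes spread apart. In CPM, Cdt1 is above Gmnn at both passages.

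The 6 genes of the Mcm2 to Mcm7 helicase core, whose proteins form one ring, did not move together. Mcm3 and Mcm6 rose, Mcm2, Mcm4 and Mcm5 fell and Mcm7 did not pass. Mcm4 was at 126, 119 and 120.1 CPM at passage 3 and 88.5, 97.5 and 97.6 CPM at passage 20. All late libraries were lower (log2 fold change -0.37, SE 0.06, edgeR adjusted p = 0.000165). Mcm2 was at 159.7, 153 and 152 CPM at passage 3 and 119, 139 and 126 CPM at passage 20. Its late libraries were lower too, with replicate 2 nearest to the early ones (log2 fold change -0.28, SE 0.06, edgeR adjusted p = 0.00193). Mcm3 went from 132 ± 1.82 to 156 ± 5.57 CPM and Mcm6 from 130.3 ± 1.88 to 152 ± 5.56 CPM without overlap (edgeR adjusted p = 0.00123 and 0.00206), but the sign of both turned with library sizes only (log2 fold change -0.092 and -0.11), where they remained above the median of all genes. Mcm5 went from 105 ± 6.65 to 91.96 ± 8.49 CPM with overlapping groups (log2 fold change -0.19, SE 0.08, edgeR adjusted p = 0.0367), and the call was lost by DESeq2 and without passage 3 replicate 1 or 3 or passage 20 replicate 1 or 2 (log2 fold change -0.15, -0.22, -0.13 and -0.19). Mcm7 was at 129, 116 and 119 CPM at passage 3 and 94.7, 104 and 126 CPM at passage 20. Passage 20 replicate 3 lay among the early libraries (log2 fold change -0.16, SE 0.10, edgeR adjusted p = 0.145), and without it Mcm7 was called lower (log2 fold change -0.30).

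On the per kilobase scale the 6 Mcm genes lay between 22.3 ± 0.602 CPM per kb (Mcm2) and 35.1 ± 0.486 CPM per kb (Mcm3) at passage 3, where Mcm4 was second with 33.97 ± 1.03 and its libraries overlapped those of Mcm3. At passage 20 they lay between 18.4 ± 1.45 (Mcm2) and 41.5 ± 1.48 CPM per kb (Mcm3), with Mcm6 second at 32.6 ± 1.19. The ratio of the highest to the lowest of the 6 within a library was 1.55, 1.59 and 1.59 at passage 3 and 2.33, 2.12 and 2.33 at passage 20. Per kilobase, the ring genes were thus further apart in every late library than in any early one (exact permutation test, two-sided p = 0.1, the smallest possible). The size of this spread and the genes at its ends depend on the exon lengths. In CPM, the means ran from 105 (Mcm5) to 155 (Mcm2) at passage 3. At passage 20 they ran from 91.96 (Mcm5) to 156 CPM (Mcm3).

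Promoter sequences of the members are shown because the genes moved both ways while many carry sites of the same factors. RefSeq windows from 250 bases before to 50 bases after the start (GRCm38.p6) were matched for 34 of the 42 genes, and Gins1, Gins2, Gins4, Gmnn, Mcm4, Pole, Prim2 and Rfc2 had no match. Windows were searched on both strands for the E2F sites TTTCGCGC, TTTGGCGC and TTTCCCGC, the CCAAT box and the CHR element TTTGAA. TTTCGCGC and TTTGGCGC can overlap on opposite strands. An E2F site was found for 13 of 34 members (38.2%), against 2.12% of all 27025 genes in the table and 3.97% of the 10975 matched genes that were tested. It was present in 7 of 13 members that rose, 3 of 10 that fell and 3 of 11 that did not pass. By role it was present in 8 of 13 licensing genes, 5 of 17 fork genes and 0 of 4 nucleotide supply genes. A CCAAT box was found for 22 of 34 members (64.7%), 41.1% of all genes and 42.8% of the matched tested genes, and TTTGAA for 4 of 34 (11.8%), 20.2% of all genes and 14.1% of the matched tested genes. Such matches describe the sequence only, and calls here are those with TMM factors.
Mcm6 was higher at passage 20 except with library sizes only. Mcm5 was lower, with overlapping groups and a call that was lost under some alternatives. The 160 bases before the start of each hold a pair of overlapping E2F sites, and those of Mcm6 a further one nearer the start (capitals mark the matches, 5′ to 3′ on the gene's strand, GRCm38.p6).
Mcm6, chr1:128359706-128359865 (-): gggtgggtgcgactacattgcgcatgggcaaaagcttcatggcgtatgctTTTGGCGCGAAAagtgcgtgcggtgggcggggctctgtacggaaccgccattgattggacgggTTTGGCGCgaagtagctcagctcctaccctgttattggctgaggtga
Mcm5, chr8:75109349-75109508 (+): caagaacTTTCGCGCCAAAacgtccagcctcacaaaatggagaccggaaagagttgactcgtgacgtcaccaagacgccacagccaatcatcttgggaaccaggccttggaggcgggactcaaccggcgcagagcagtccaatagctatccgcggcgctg
The matches of 3 further members that rose and 2 that fell are given in 28 bases each, those of Orc1, Orc3 and Gins3 before the start, that of Cdt1 after it, and for Rfc3 one on either side of it.
Orc1, chr4:108579417-108579444 (+): tcggttagtgGCGCGAAAagttttctcc
Orc3, chr4:34614966-34614993 (-): catgcctcccTTTCCCGCacgccccgcc
Cdt1, chr8:122568037-122568064 (+): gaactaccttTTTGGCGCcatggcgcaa
Gins3, chr8:95633508-95633535 (+): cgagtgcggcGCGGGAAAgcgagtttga
Rfc3, chr5:151651191-151651218 (-): TTTCGCGCtcGCGGGAAAactctactgt

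Genes that activate the helicase held the largest well-counted fall. Of 6, 3 rose, 2 fell and 1 did not pass. Gins3 (ENSMUSG00000031669, GRCm38 chromosome 8, 95633453 to 95645060), which encodes the Psf3 subunit of the GINS complex, was at 16.2, 15.2 and 15.8 CPM at passage 3 and 6.82, 5.46 and 5.99 CPM at passage 20. The late libraries were far below the early ones and close to each other, a 2.58-fold fall (log2 fold change -1.37, SE 0.12, edgeR adjusted p = 1.08e-06). Gins1, the Psf1 subunit, fell from 9.09 ± 0.342 to 6.33 ± 0.709 CPM (log2 fold change -0.53, SE 0.13, edgeR adjusted p = 0.00294). Gins4, the Sld5 subunit, was at 25.5 ± 1.03 CPM at passage 3 and 21.8 ± 2.78 CPM at passage 20 and did not pass (log2 fold change -0.22, SE 0.10, edgeR adjusted p = 0.058), but was called lower without passage 20 replicate 3 (log2 fold change -0.35). Gins2, the Psf2 subunit, rose slightly, from 29.1 ± 0.387 to 34.4 ± 3.097 CPM (log2 fold change 0.24, SE 0.08, edgeR adjusted p = 0.0172). That call was lost without any one of 5 libraries (log2 fold change 0.17 without passage 20 replicate 3, 0.23, 0.23 and 0.24 without passage 3 replicates 1, 2 and 3, 0.24 without passage 20 replicate 2), and the sign turned with library sizes only (-0.085). Gins2 shares 67.3% of its exon bases with Gse1 on the opposite strand.

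Cdc45, the helicase cofactor, rose from 24.7 ± 0.943 to 30.7 ± 2.52 CPM (log2 fold change 0.32, SE 0.08, edgeR adjusted p = 0.00477), with a log2 fold change of -0.0094 with library sizes only. Mcm10, which acts on the assembled helicase, was at 32.8, 31.7 and 29.4 CPM at passage 3 and 32.2, 37.4 and 38.5 CPM at passage 20. The groups overlapped, its edgeR adjusted p was 0.0452 (log2 fold change 0.21, SE 0.09), and the call was lost without every library but passage 20 replicate 1 (log2 fold change 0.23, 0.21 and 0.15 without passage 3 replicates 1, 2 and 3, 0.18 and 0.14 without passage 20 replicates 2 and 3). It was lost with the replicate block as well (0.21), and the sign turned with library sizes only (-0.12).

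In polymerase alpha-primase, which lays down the primers, 1 of 4 genes passed. Prim2, the large primase subunit, was at 27.9, 29.1 and 28.00 CPM at passage 3 and 37.8, 36.9 and 37.5 CPM at passage 20. The late libraries were tightly grouped above the early ones (log2 fold change 0.40, SE 0.07, edgeR adjusted p = 0.000243), but the gene did not pass with library sizes only (log2 fold change 0.072). Pola2, the accessory subunit, was at 47.2, 44.2 and 44.6 CPM at passage 3 and 42.5, 45.5 and 49.4 CPM at passage 20 with overlapping groups (log2 fold change 0.02, SE 0.07, edgeR adjusted p = 0.845), and its sign turned without passage 3 replicate 2 (-0.013), passage 3 replicate 3 (-0.0067) or passage 20 replicate 3 (-0.058), and under other scalings. The catalytic subunit gene Pola1 was at 50.3 ± 3.62 CPM at passage 3 and 53.6 ± 1.46 CPM at passage 20 and the primase gene Prim1 at 42.8 ± 2.898 CPM at passage 3 and 41.2 ± 1.88 CPM at passage 20, neither passing (edgeR adjusted p = 0.261 and 0.548).

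The catalytic genes of the strand-extending polymerases moved apart. Pold1, of polymerase delta, was at 73.6, 69.7 and 77.9 CPM at passage 3 and 93.1, 96.3 and 86.01 CPM at passage 20. It rose 1.24-fold without overlap (log2 fold change 0.31, SE 0.07, edgeR adjusted p = 0.00122), with a log2 fold change of -0.017 with library sizes only. Pole, of polymerase epsilon, was at 54.3, 48.6 and 48.4 CPM at passage 3 and 42.5, 40.2 and 44.97 CPM at passage 20. It fell 1.18-fold without overlap (log2 fold change -0.24, SE 0.07, edgeR adjusted p = 0.0119), and the call was lost without passage 20 replicate 2 (log2 fold change -0.20).

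Pcna, the sliding clamp, was among the members that did not pass. It was at 148, 133 and 133 CPM at passage 3 and 139, 156 and 145 CPM at passage 20. The groups overlapped (log2 fold change 0.09, SE 0.06, edgeR adjusted p = 0.225), although with library sizes only Pcna was called lower (log2 fold change -0.24). Its pseudogene Pcna-ps2 held 417 counts over all libraries against 11872 for Pcna, and reads that fit both cannot be told apart. Of the 5 clamp loader genes, 1 rose, 1 fell and 3 did not pass. Rfc3 was at 34.1, 34.1 and 37.6 CPM at passage 3 and 24.01, 25.8 and 27.7 CPM at passage 20. All late libraries were lower (log2 fold change -0.45, SE 0.08, edgeR adjusted p = 0.000491). Rfc5, with the smallest change of the loader genes, was at 45.7, 45.9 and 47.99 CPM at passage 3 and 47.03, 43.4 and 45.8 CPM at passage 20 (log2 fold change -0.04, SE 0.07, edgeR adjusted p = 0.634). Rfc1, the large subunit, rose from 110.1 ± 3.76 to 130.0 ± 14.4 CPM (log2 fold change 0.24, SE 0.08, edgeR adjusted p = 0.0137), and the call was lost without passage 3 replicate 1 or 3 or passage 20 replicate 2 (log2 fold change 0.20, 0.23 and 0.15) and the sign turned with library sizes only (-0.094). Rfc2 was at 70.7 ± 2.96 CPM at passage 3 and 77.2 ± 1.55 CPM at passage 20 and Rfc4 at 20.3 ± 2.13 CPM at passage 3 and 22.6 ± 0.548 CPM at passage 20.

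The 3 genes of replication protein A, which coats single-stranded DNA, all had lower means at passage 20, and 2 of them passed. Rpa2 was at 34.2, 36.5 and 32.5 CPM at passage 3 and 26.1, 25.5 and 26.3 CPM at passage 20. Early and late libraries were clearly apart (log2 fold change -0.41, SE 0.08, edgeR adjusted p = 0.000519). Rpa1, the large DNA-binding subunit, fell from 109 ± 1.83 to 84.3 ± 5.43 CPM (log2 fold change -0.37, SE 0.06, edgeR adjusted p = 0.000178). Rpa3, the smallest subunit, was at 17.4, 18.4 and 18.4 CPM at passage 3 and 15.3, 17.1 and 15.3 CPM at passage 20. Its groups did not overlap, but the change did not pass (log2 fold change -0.19, SE 0.09, edgeR adjusted p = 0.0811). Summed over the 3 genes, the level was 163, 164 and 159 CPM at passage 3 and 121, 125 and 132 CPM at passage 20.

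Genes that join Okazaki fragments went opposite ways, but one of them was barely counted. Lig1, DNA ligase 1, was at 94.5, 93.6 and 98.7 CPM at passage 3 and 124, 135 and 125 CPM at passage 20. It rose 1.34-fold without overlap (log2 fold change 0.42, SE 0.06, edgeR adjusted p = 4.26e-05), and did not pass with library sizes only (log2 fold change 0.09). Fen1, the flap endonuclease, had 13, 23 and 29 counts at passage 3 and 2, 7 and 9 counts at passage 20, or 0.822, 1.41 and 1.46 CPM at passage 3 and 0.198, 0.695 and 0.739 CPM at passage 20. The late libraries were lower (log2 fold change -1.16, SE 0.42, edgeR adjusted p = 0.0265), but the call was lost by DESeq2 and without passage 3 replicate 2 or 3 or passage 20 replicate 1 (log2 fold change -1.07, -1.01 and -0.79). Of its 2422 exon bases 84.2% also belong to exons of Gm10143 or Tmem258 on the opposite strand. Its 83 counts in all compare with 676 for Gins1, the next lowest member. No source used here says whether reads over shared bases were dropped, so both the level and the change of Fen1 are uncertain.

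Nucleotide supply genes were the role with the lowest median (log2 fold change -0.33), with 2 of 4 lower, 1 higher and 1 not passing. Their summed level overlapped between passages (447 ± 12.1 and 426 ± 15.45 CPM). Of 12 other nucleotide supply genes outside the members, 5 rose and 3 fell, with a median log2 fold change of 0.098. With library sizes only, 5 of these 12 rose and 6 fell. Tyms, thymidylate synthase, which makes dTMP, was at 52.8, 50.1 and 51.3 CPM at passage 3 and 27.9, 30.1 and 32.7 CPM at passage 20. It fell 1.699-fold without overlap (log2 fold change -0.76, SE 0.07, edgeR adjusted p = 3.63e-06). Rrm2, the small subunit of ribonucleotide reductase that is made in S phase, was at 116, 112 and 107 CPM at passage 3 and 75.1, 76.03 and 80.7 CPM at passage 20. It fell 1.44-fold (log2 fold change -0.53, SE 0.06, edgeR adjusted p = 9.62e-06). Rrm1, the large subunit, was at 255, 253 and 240.3 CPM at passage 3 and 274, 293 and 292 CPM at passage 20. It rose 1.15-fold without overlap (log2 fold change 0.20, SE 0.05, edgeR adjusted p = 0.00361), but was called lower with library sizes only (log2 fold change -0.13, adjusted p = 0.0457). Tk1, thymidine kinase of the salvage route, was at 35.8, 33.4 and 36.5 CPM at passage 3 and 31.9, 32.1 and 32.7 CPM at passage 20. Its groups did not overlap, yet the change did not pass (log2 fold change -0.13, SE 0.07, edgeR adjusted p = 0.112).

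Within a library the ratio of Rrm2 to Rrm1 per kilobase was 1.81, 1.76 and 1.77 at passage 3 and 1.09, 1.03 and 1.096 at passage 20. On this scale the small subunit exceeded the large one in every library, by far less in the late ones, with means of 1.78 ± 0.0263 and 1.07 ± 0.0353. That order rests on the union exon lengths, 11012 bases for Rrm1 and 2771 for Rrm2. In CPM, Rrm1 was the higher in every library (249 and 286 CPM against 112 and 77.3 CPM for Rrm2). The order of 2 genes thus depends on the length used, while the relative change of their ratio between passages does not. The ratio of Tk1 to Tyms per kilobase was 0.794, 0.782 and 0.834 at passage 3 and 1.34, 1.25 and 1.17 at passage 20. Per kilobase, Tyms was the higher of the pair in all early libraries and Tk1 in all late ones. In CPM, both were at 32.7 in passage 20 replicate 3. For both ratios the exact permutation test gave its smallest possible two-sided p of 0.1. Of the ratios compared between passages (5 of gene levels and 1 of sums), each reached that p, and with 3 libraries against 3 none can pass 0.05 before or after adjustment. The ratios were added outside the rule for naming genes, and those of gene levels compare genes whose fitted changes already differed. Their p is therefore no support beyond the changes of the single genes.

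**Figure D4:**
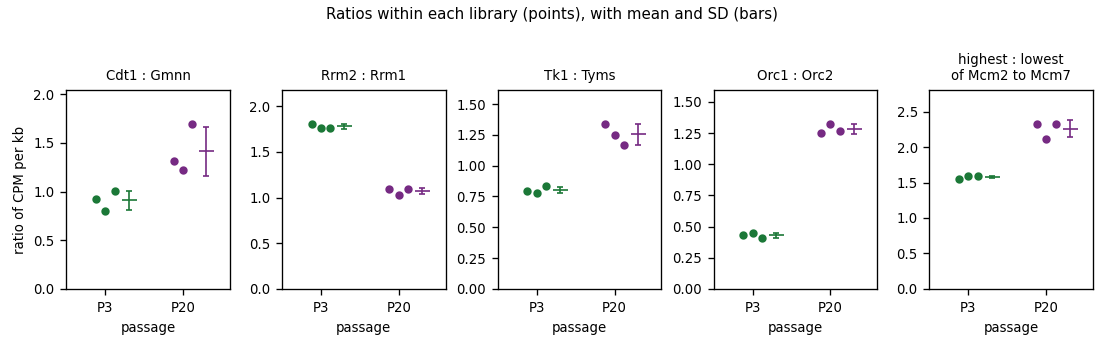
Ratios of CPM per kilobase within each library (points) at passage 3 (P3) and passage 20 (P20), with the mean and SD of 3 libraries beside them. No pair of passages overlaps, and the ratio of Orc1 to Orc2 moved furthest (0.428 ± 0.0207 and 1.28 ± 0.0403).

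Other genes of replication also moved both ways, as did all tested genes. The 41 further genes cover origin firing, polymerase subunits, fork partners, chromatin assembly and nucleotide supply. By edgeR's test 13 rose (31.7%), 15 fell (36.6%) and 13 missed the threshold, where 37% of all tested genes were higher and 37.3% lower. The median log2 fold change of the 41 was -0.12. With library sizes only 10 rose and 27 fell, where 23.3% of all tested genes were higher and 54.6% lower. Without passage 20 replicate 3, 13 rose and 19 fell, where more of all tested genes were called in each direction too. The 3 chromatin assembly genes, which place histones on new DNA, all fell, with library sizes only as well. They were Chaf1a (61.4 ± 1.52 to 49.7 ± 5.76 CPM), Chaf1b (38.5 ± 0.591 to 26.8 ± 2.81 CPM) and Asf1b (19.5 ± 1.29 to 12.4 ± 3.44 CPM). These 3 are named outside the rule for naming genes. Chaf1a shares 52.5% of its exon bases with Ubxn6 on the opposite strand. Of the 7 firing factors 3 rose and 3 fell, and of the 13 fork and clamp partners 2 rose and 6 fell. The further polymerase subunit genes went the other way, with 3 of 6 higher and 0 lower. With library sizes only 2 of the polymerase subunit genes rose and 3 fell. By adjusted p the leading rises were Paics, a purine synthesis enzyme (170.2 ± 2.601 to 299 ± 8.31 CPM), Impdh2, which makes guanine nucleotides (158 ± 12.6 to 297 ± 4.97 CPM), and Top2a, which untangles DNA (495 ± 18.9 to 769 ± 49.99 CPM). The leading falls were Top1, which relieves supercoils at forks (169.5 ± 2.89 to 99.4 ± 5.54 CPM), Samhd1, which degrades deoxynucleotides (116 ± 2.64 to 66.7 ± 4.64 CPM), and Topbp1, a firing factor and checkpoint activator (133 ± 7.09 to 99.7 ± 4.09 CPM). The largest edgeR adjusted p of these 6 was 7.28e-05. All 6 kept their sign with library sizes only.

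Among 12 proliferation markers, mostly mitotic genes, 8 rose, 1 fell and 3 did not pass, with a median log2 fold change of 0.39. With library sizes only 4 rose and 5 fell. Without passage 20 replicate 3, 9 rose and 3 fell, where more of all tested genes were called in each direction as well. Mki67 was at 427, 385 and 387 CPM at passage 3 and 424, 486 and 376 CPM at passage 20, overlapping (log2 fold change 0.10, SE 0.09, edgeR adjusted p = 0.31), and its sign turned with library sizes only (-0.23). The marker that fell was Ccne1, a cyclin of the G1 to S transition (26.1 ± 1.97 to 11.8 ± 1.303 CPM, log2 fold change -1.14, SE 0.11, edgeR adjusted p = 2.44e-06). Ccne2, the other cyclin E gene of the list, rose (24.9 ± 1.65 to 31.5 ± 0.564 CPM, log2 fold change 0.34, SE 0.08, edgeR adjusted p = 0.0022). E2f1, named, like Ccne1, after its value was seen, rose from 35.2 ± 1.49 to 56.1 ± 2.82 CPM (log2 fold change 0.67, SE 0.07, edgeR adjusted p = 5.49e-06). The summed level of the 42 replication genes over that of the 12 markers was 2.32, 2.37 and 2.38 at passage 3 and 1.97, 1.93 and 2.13 at passage 20. The 42 genes were lower relative to these markers in each late library. Their own sum overlapped between the passages with TMM factors and was lower in every late library as a share of all counts. With TMM factors, the 41 further replication genes summed to 2548 ± 21.2 CPM at passage 3 and 2996 ± 69.7 CPM at passage 20, without overlap. The 12 markers summed to 1116.5 ± 44.1 CPM at passage 3 and 1355.8 ± 82.9 CPM at passage 20, also without overlap. The ratio of these 41 to the markers was not compared, so the lower ratio cannot be called particular to the 42. With library sizes only, the median log2 fold change was -0.45 for the 41, -0.30 for the 42 and -0.34 for all tested genes. The share of all counts was not computed for the 41. The proportions of cells in each phase were not measured.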

How the data were processed

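Each library has a file of raw counts by gene and a file of log2 values, both deposited by the authors, and no source used here gives the log2 transformation. Tools listed by the submitters' processing notes are HISAT2 (2.0.5), HTSeq, SAMtools and DESeq2, with the build GRCm38, and no annotation release or strand setting. Tables of the whole series repeat these values and were not used. Names, positions and union exon lengths were read from the GENCODE M21 annotation (GRCm38), where 53706 of 53801 identifiers were found, and the 95 others held 0.00623% of counts.

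Counts were filtered with filterByExpr, scaled with TMM factors (trimmed mean of M-values) and tested with edgeR 4.0.16 in R 4.3.3 (robust quasi-likelihood test, Benjamini-Hochberg adjustment over all 15143 genes, threshold 0.05). The standard error (SE) of a log2 fold change is its size over the square root of its F statistic. The common biological coefficient of variation was 7.05%. Ratios within a library were compared with an exact permutation test. The edgeR fit was checked on simulated data.

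The members and lists were chosen with earlier results of these data known. The rule gave values per library for Cdc6, Cdt1, Gmnn, Pcna, Mcm2 and the nucleotide supply genes and for the largest and smallest change of each complex, and named up to 3 further replication genes per direction by adjusted p. Orc1, the chromatin assembly genes, Ccne1, Ccne2, E2f1 and the within-library ratios were added outside that rule. Alternatives were other scalings (RLE, upper quartile, none beyond library sizes), other tests (DESeq2 1.42.0, limma-voom with limma 3.58.1, and limma on the deposited log2 values), other filters (none, or 1 CPM in 3 libraries), each library left out, a replicate block and a threshold of 0.01.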

Additional observations from a re-analysis of the deposited data

How the results depend on the processing

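With RLE factors, DESeq2, limma-voom, a minimum of 1 CPM in 3 libraries, the replicate block, a threshold of 0.01 and limma on the deposited log2 values, no member changed sign. Under these, the fork median was 0.055 with the 1 CPM minimum, which left Fen1 untested, and 4 fork members were higher at 0.01. With upper-quartile factors 4 fork members were higher, the medians were -0.044 for all members, -0.060 for fork, 0.14 for licensing and -0.41 for nucleotide supply, and Cdc6 (-0.029) and Pola2 (-0.060) turned negative. Without a low-count filter the fork median was -0.013, the licensing median 0.19 and Pola2 -0.013.

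With library sizes only, 3529 of all genes were higher (23.3%) and 8269 lower (54.6%). Members stood at 3 higher and 26 lower, licensing at 3 and 7, fork at 0 and 15, nucleotide supply at 0 and 4, and 27 other replication genes were lower. Medians were -0.30 for all members, -0.11 for licensing, -0.31 for fork and -0.66 for nucleotide supply. Signs turned for Cdc6 (-0.28), Mcm3 (-0.092), Mcm6 (-0.11), Mcm10 (-0.12), Cdc45 (-0.0094), Gins2 (-0.085), Pola1 (-0.24), Pola2 (-0.31), Pold1 (-0.017), Pcna (-0.24), Rfc1 (-0.094), Rfc2 (-0.20), Rfc4 (-0.18), Rrm1 (-0.13) and Mki67 (-0.23). The median of all genes shifted as well, from -0.012 to -0.34.

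Leaving out each library in turn gave 4 to 7 higher fork members, and medians of -0.011 to 0.069 for all members, -0.049 to 0.067 for fork, 0.18 to 0.23 for licensing and -0.37 to -0.32 for nucleotide supply. The median of all members turned negative without passage 3 replicate 3 (-0.011) and without passage 20 replicate 3 (-0.0030). Pola2 turned without passage 3 replicate 2 (-0.013), passage 3 replicate 3 (-0.0067) and passage 20 replicate 3 (-0.058), Cdc6 without passage 3 replicate 3 (-0.015) and passage 20 replicate 3 (-0.047), and Orc4 without passage 20 replicate 3 (0.041). Over single libraries left out, Cdc6 ranged from -0.047 to 0.16, Orc4 from -0.16 to 0.041. The causes were not tested.

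Replicate numbers did not pair the libraries, since the deviations of equally numbered libraries correlated at 0.0143, -0.0273 and 0.0454, and of the same-numbered libraries only those numbered 3 correlated best with each other. With the replicate block, 15 members were higher and 13 lower, and 5521 of all genes were higher and 5582 lower. Depth limits Fen1 (83 counts in all) more than any other member.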
